A study of Mus musculus with 2 samples.

Results

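The major histocompatibility complex (MHC) and antigen presentation genes described here are 10 mouse genes: the class I light chain B2m and the class I heavy chains H2-K1 and H2-D1, the peptide loading genes Tap1, Tap2 and Tapbp, and the class II genes H2-Aa, H2-Ab1, H2-Eb1 and Cd74. They were chosen by name, and each was found once among the 43346 Ensembl gene rows of the deposited tables through GENCODE M21. The rule uses names and no measured value. Total RNA depleted of ribosomal RNA had been sequenced from CFU-E, the colony-forming erythroid progenitor that matures into red cells, isolated from the bone marrow of male adult C57BL/6J mice of 5 to 6 weeks with no treatment named. The only group holds 2 libraries, biological replicates 1 and 2, each made from 100 ng of RNA. Both carry 1 donor identifier but different biosamples in the labels, and how far their spread is technical is not known. With 1 group the series contrasts no conditions and no p-value was computed.

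Class I molecules are carried by nearly all nucleated cells and show peptides from inside the cell to CD8 T cells. Their heavy chain pairs with beta-2 microglobulin in the endoplasmic reticulum, where the TAP transporter delivers peptides and tapasin bridges it to the empty molecule. Class II molecules are made mainly by B cells, dendritic cells and macrophages. They show peptides taken up from outside to CD4 T cells, and the invariant chain blocks their groove on the way.

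Replicate 1 held 62576352 expected counts, the estimated number of reads per gene, and replicate 2 held 36889511. Levels are given in TPM, the deposited relative transcript abundance, which corrects for transcript length and for the library total. In these libraries most TPM lay outside the nuclear protein-coding genes. Rescaling to the total of the 21461 nuclear protein-coding genes multiplies every value by 8.05 in replicate 1 and by 13.4 in replicate 2. All 9 erythroid markers examined passed 10 TPM in each library, the lowest being Gata1 at 19.7 and 10.1. The 10 myeloid markers all reached 1 TPM in each library, with 1323 TPM in sum in replicate 1 and 669.6 in replicate 2. In such bulk samples fewer cells of a type and less RNA per cell cannot be told apart.

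Of the 10 genes, 9 reached 1 TPM in each library, a level that 23.9% of nuclear protein-coding genes reached. Tap2 was the exception. Their median of the mean TPM was 5.20, against 0.055 for all nuclear protein-coding genes and 4.41 for those that reached 1 TPM in each. B2m and H2-D1 passed 10 TPM in both libraries, which 4.79% of nuclear protein-coding genes did. After rescaling, all 10 passed 1 in both libraries, and so did 42.2% of nuclear protein-coding genes. The order B2m, H2-D1, H2-K1, Tapbp was the same in both libraries, and Tap2 was last in both.

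**Figure D1:**
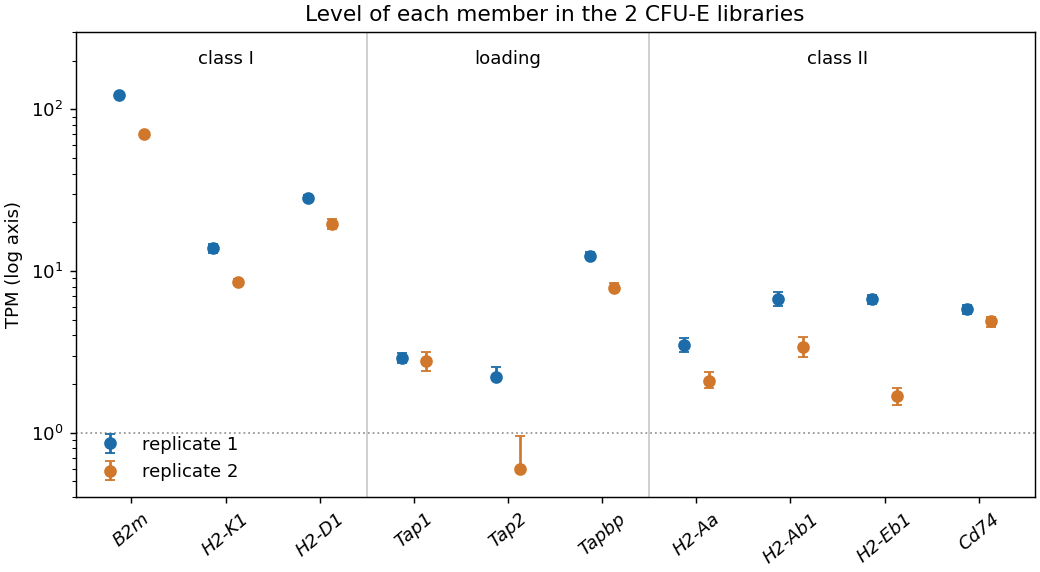
TPM (log axis) of the 10 genes, grouped by role, in replicate 1 (blue) and replicate 2 (orange). Bars are the deposited credibility intervals, which cover estimation error within a library, and the dotted line marks 1 TPM. B2m stands at 123 and 70.6 TPM, and Tap2 falls to 0.60 in replicate 2.

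B2m encodes beta-2 microglobulin and lies on chromosome 2 (mm10, 122147686 to 122153083, plus strand). It had 12840 expected counts in replicate 1 and 7225 in replicate 2. Its level was 123 TPM (credibility interval 120.3 to 124.5) in replicate 1 and 70.6 TPM (68.3 to 71.5) in replicate 2, or 96.9 ± 37.2 (SD, n = 2). The TPM values differed far beyond their intervals, but the rescaled values were close, at 992 and 943. Only 99 nuclear protein-coding genes were higher in replicate 1 and 112 in replicate 2.

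The class I heavy chain genes H2-D1 (chromosome 17, 35262730 to 35267499, plus strand) and H2-K1 (33996017 to 34000347, minus strand) encode the classical D and K molecules. H2-D1 had 28.4 TPM (27.1 to 29.6) in replicate 1 and 19.6 TPM (18.3 to 20.9) in replicate 2. H2-K1 had 13.8 TPM (12.9 to 14.8) in replicate 1 and 8.51 TPM (8.15 to 8.97) in replicate 2. H2-D1 was thus the higher heavy chain in each library, by a log2 ratio of H2-K1 to H2-D1 of -1.12 ± 0.12 (SD, n = 2). The lowest H2-D1 value lay above the highest H2-K1 value, while those of H2-K1 and Tapbp overlapped. Over protein-coding transcripts alone the log2 ratio was -0.79 ± 0.02, because a retained-intron transcript held 21.9% of H2-D1 TPM in replicate 1 and 27.4% in replicate 2. B2m exceeded the summed heavy chains 2.92-fold in replicate 1 and 2.51-fold in replicate 2. By counts with no correction for length, the excess was 1.45-fold and 1.26-fold.

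These heavy chains are near copies, which bears on how reads are shared out between them. Their coding sequences were identical at 985 of 1089 aligned positions (90.4%). The stretches below show the extremes, with the bases that differ in capitals and positions counted from the first coding base. The first pair lies in the part for the alpha 3 domain, which is the domain that CD8 contacts, and differs at 1 of 120 bases. The second pair lies in the part for the peptide-binding domains and differs at 20.
H2-K1, coding bases 656 to 775: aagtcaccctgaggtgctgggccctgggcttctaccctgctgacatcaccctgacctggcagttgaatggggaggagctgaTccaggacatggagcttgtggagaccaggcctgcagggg
H2-D1, coding bases 665 to 784: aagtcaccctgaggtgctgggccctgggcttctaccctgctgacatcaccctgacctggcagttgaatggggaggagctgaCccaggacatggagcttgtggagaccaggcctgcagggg
H2-K1, coding bases 268 to 387: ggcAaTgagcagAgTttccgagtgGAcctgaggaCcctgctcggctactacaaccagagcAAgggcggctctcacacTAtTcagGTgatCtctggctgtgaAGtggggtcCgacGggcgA
H2-D1, coding bases 277 to 396: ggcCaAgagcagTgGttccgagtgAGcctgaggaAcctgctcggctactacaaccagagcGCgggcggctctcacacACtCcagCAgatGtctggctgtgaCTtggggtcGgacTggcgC
Of all 50-base stretches of the main transcript, 9.07% in H2-K1 and 14.3% in H2-D1 occurred also in transcripts of other genes, against 0 in B2m and in each of the 4 class II genes. At 100 bases the share was 0 for H2-K1 and 4.64% for H2-D1. The deposited posterior SD of the count was small, at 0 and 3.47 reads for H2-K1 and 0.05 and 4.84 for H2-D1 in replicates 1 and 2. Reads were assigned between the heavy chains by the authors' estimate, and the D to K ratio rests on it.

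Of 14 other class I and class I-like genes, 3 reached 1 TPM in each library, a level that 23.9% of nuclear protein-coding genes reached. H2-T24, a non-classical class I gene of the T region, was the highest, with 39.2 TPM in replicate 1 and 25.7 in replicate 2. It lay above H2-D1 in both libraries, and fewer genes were higher than it, 405 in replicate 1 and 397 in replicate 2 against 582 and 533 for H2-D1. H2-T24 is the least like the classical genes of those compared, with 58.8% of aligned coding positions identical to H2-D1, and 3.23% of its 50-base stretches occurred in other genes. Its longer protein-coding transcript held 95.5% of its TPM in replicate 1 and 97.2% in replicate 2. H2-T23, which encodes Qa-1, had 13.9 and 7.33 TPM, and H2-Q4 had 3.26 and 2.11. Of their 50-base stretches 28.8% and 24.3% were found in other genes, so their values rest on how the authors' estimate shared out reads. The posterior SD of the count was 0 and 3.17 reads for H2-T23 and 0 and 0.88 for H2-Q4. H2-Q7 came next by mean TPM, with 1.79 TPM in replicate 1 and 0.64 in replicate 2, but H2-T22 (0.73 and 1.29) and H2-Q6 (1.13 and 0.99), named after their values were seen, lay above it in replicate 2. H2-Q1, H2-Q2 and H2-T3 had 0 counts in both libraries, which allows up to 3 counts each, for counting error only. For H2-T3 the deposited interval reached 0.81 TPM in replicate 1 and 0.51 in replicate 2, while 3 counts would be 0.016 TPM. H2-Q1 was among the genes that shared most 50-base stretches with H2-K1, H2-D1 and H2-T23, so its 0 also rests on how reads were shared out. With H2-T24, H2-T23 and H2-Q4 counted as heavy chains, B2m exceeded the sum 1.25-fold and 1.12-fold in TPM. By counts with no correction for length the direction turned, and B2m lay 1.98-fold and 2.17-fold below that sum.

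Tapbp encodes tapasin, which holds the empty class I molecule at the transporter, and was the highest of the loading genes. It lies on chromosome 17 (33915899 to 33929292, plus strand) and had 12.4 TPM (11.9 to 13.03) in replicate 1 and 7.88 TPM (7.49 to 8.47) in replicate 2. The 1312 and 1308 nuclear protein-coding genes above it were nearly the same number in both libraries. Zbtb22 overlaps Tapbp on the same strand over 3422 bases and had 1503 and 585 counts, against 4412 and 2490 for Tapbp. The deposited posterior SD of the Tapbp count was 0 in both libraries. Whether reads of the shared stretch were split between these genes was not tested.

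Tap1 and Tap2 encode the subunits of the transporter, which works as a heterodimer. Tap1 (chromosome 17, 34187553 to 34197225, plus strand) had 2.89 TPM (2.70 to 3.12) in replicate 1 and 2.78 TPM (2.42 to 3.16) in replicate 2. It was the only one of the 10 whose intervals overlapped between libraries. Tap2 (34203527 to 34216321, plus strand) had 2.22 TPM (2.13 to 2.54) in replicate 1 and 0.60 TPM (0.58 to 0.96) in replicate 2. Tap1 exceeded Tap2 1.30-fold in replicate 1 and 4.63-fold in replicate 2, a log2 ratio of 1.30 ± 1.30 (SD, n = 2), so the size of the difference was not fixed by these libraries. By counts the TMM-scaled log2 ratio of replicate 1 to replicate 2 was 0.52 for Tap1 and 1.21 for Tap2.

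Nearly all Tap2 signal was assigned to a transcript annotated as retaining an intron. This transcript had 848 counts in replicate 1 and 187 in replicate 2, while the full protein-coding transcript had 0 and 38.95. Retained-intron transcripts thus held 100% and 86.7% of Tap2 TPM. Among nuclear protein-coding genes with such a transcript (mean count 50 or more), the median share was 11.4% in replicate 1 and 17.4% in replicate 2. Of the 7 members with such a transcript, Tap2 alone exceeded 50% in both libraries, as did 7.69% of the 4071 genes compared. Over protein-coding transcripts alone Tap2 fell to 0 and 0.08 TPM. The retained-intron transcript is 2561 bases long and the protein-coding one 3442, and they also differ in the first exon, of 57 and 1097 bases, so the assignment does not rest on the intron alone. The intron, at chr17:34212068-34212229 (mm10, plus strand), is shown because it is the sequence that the retained-intron transcript keeps, with its 162 bases in capitals between 30 bases of each neighbouring exon.
Tap2 intron: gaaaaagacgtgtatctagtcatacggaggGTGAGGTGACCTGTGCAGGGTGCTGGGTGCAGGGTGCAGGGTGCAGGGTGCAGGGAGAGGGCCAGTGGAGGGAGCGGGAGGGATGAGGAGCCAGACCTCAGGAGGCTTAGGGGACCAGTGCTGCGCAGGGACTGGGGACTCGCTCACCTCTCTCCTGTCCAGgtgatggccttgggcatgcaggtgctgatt

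The transcripts of Tap1 were shared out differently in each library. The full coding transcript had 998.5 counts in replicate 1 and 82.2 in replicate 2, or 90.6% and 17.4% of the gene's counts. A short coding model of 587 bases went from 4.36% of TPM in replicate 1 to 52.6% in replicate 2. Retained-intron transcripts of Tap1 held 3.10% and 32.0%. The near-equal Tap1 levels in TPM therefore rest on different transcripts, and over protein-coding transcripts the level was 2.81 TPM in replicate 1 and 1.89 in replicate 2. The library size range in the labels was 209 to 891 for replicate 1, and 186 to 747 for the other library, and the part of this difference in the transcript shares was not tested.

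**Figure D2:**
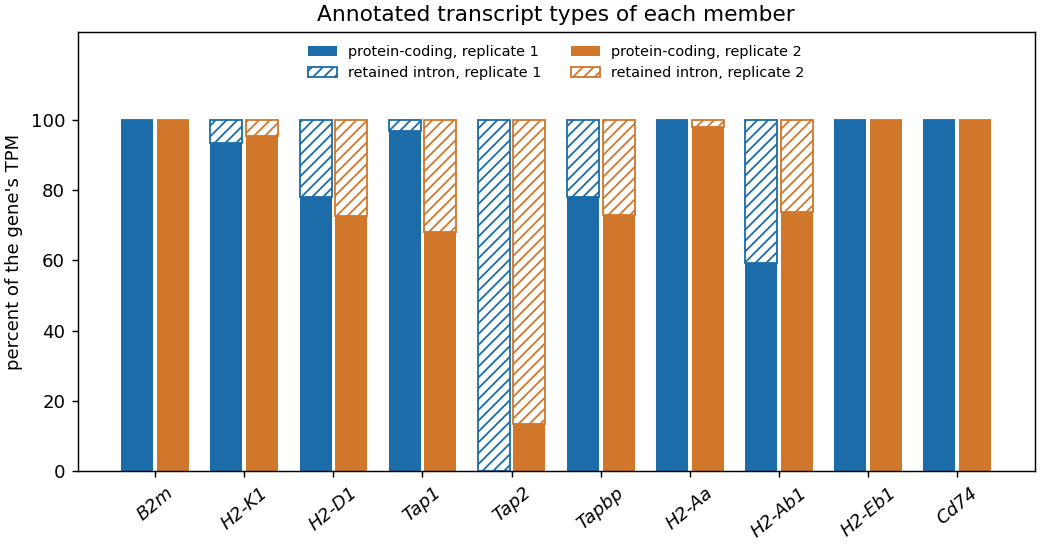
Percent of each gene's TPM assigned to protein-coding (filled) and retained-intron (hatched) transcripts of the annotation, in replicate 1 (blue) and replicate 2 (orange). Tap2 is hatched for 100% and 86.7%, while B2m, H2-Eb1 and Cd74 are wholly protein-coding.

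Of 10 other genes of class I processing, 7 reached 1 TPM in each library, against 23.9% of nuclear protein-coding genes. The chaperones Calr and Canx, which fold glycoproteins of many kinds, had 89.9 and 51.7 TPM and 63.0 and 35.3 TPM, or 41.8 and 22.8 and 34.9 and 21.5 over protein-coding transcripts. Pdia3, a disulfide isomerase of the loading complex, had 9.76 and 6.92. Psme2, a subunit of the proteasome activator, had 6.01 and 8.63, and was higher in replicate 2. The immunoproteasome subunits, which replace constitutive subunits in immune cells or after interferon, were compared with the subunits that they replace. Psmb8 exceeded Psmb5 by a log2 ratio of 1.43 ± 0.71, Psmb9 lay below Psmb6 by -1.17 ± 0.17, and Psmb10 lay below Psmb7 by -5.11 ± 0.55 (SD, n = 2 each). Each ratio had 1 sign in both libraries, and the 3 pairs did not share it. Psmb9 overlaps Tap1 on the opposite strand over 212 bases.

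H2-Aa and H2-Ab1 encode the alpha and beta chains of the I-A molecule, and were both read in each library. H2-Ab1 (chromosome 17, 34257689 to 34269419, plus strand) had 6.72 TPM (6.05 to 7.40) in replicate 1 and 3.38 TPM (2.93 to 3.90) in replicate 2. H2-Aa (34282744 to 34287823, minus strand) had 3.47 TPM (3.14 to 3.86) in replicate 1 and 2.10 TPM (1.89 to 2.39) in replicate 2. The alpha chain gene was the lower in each library, by a log2 ratio of -0.82 ± 0.19 (SD, n = 2). Over protein-coding transcripts alone this shrank to -0.24 ± 0.05, since a retained-intron transcript held 40.6% and 26.3% of H2-Ab1 TPM. After rescaling H2-Aa was close in both libraries, at 27.9 and 28.0.

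H2-Aa reads were assigned to different coding transcripts in each library. A coding transcript that lacks an exon had 249.4 of 389 counts in replicate 1 and 0 of 298 in replicate 2. The complete coding transcript had 139.6 in replicate 1 and 295 in replicate 2. The complete transcript is 1132 bases long and the other 826, so they differ by more than this exon. The assignment therefore need not rest on the exon alone. The exon, at chr17:34284288-34284536 (mm10, minus strand), is shown because the shorter model lacks it, with its 249 bases in capitals between 20 bases of each neighbouring exon. It encodes most of the alpha 1 domain, which forms a wall of the peptide groove.
H2-Aa exon: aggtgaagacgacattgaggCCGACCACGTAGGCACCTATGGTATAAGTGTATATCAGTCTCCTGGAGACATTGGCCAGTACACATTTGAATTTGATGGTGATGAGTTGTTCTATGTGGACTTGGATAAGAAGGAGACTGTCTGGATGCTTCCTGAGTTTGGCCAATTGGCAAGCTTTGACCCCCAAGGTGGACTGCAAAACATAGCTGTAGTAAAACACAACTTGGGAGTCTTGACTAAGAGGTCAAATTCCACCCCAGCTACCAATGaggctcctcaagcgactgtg

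H2-Eb1 encodes the beta chain of the I-E molecule (chromosome 17, 34305867 to 34316674, plus strand). It had 6.73 TPM (6.29 to 7.09) in replicate 1 and 1.69 TPM (1.48 to 1.89) in replicate 2, from 1057 and 256 counts. It equalled H2-Ab1 in replicate 1 and lay 2.00-fold below it in replicate 2, a log2 ratio of H2-Ab1 to H2-Eb1 of 0.50 ± 0.71 (SD, n = 2). The alpha chain gene of I-E, annotated as H2-Ea-ps and looked up after the other values were seen, had 0 counts in both libraries. C57BL/6 mice are known to lack a working I-E alpha gene, so their I-E beta chain has no partner.

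Cd74 encodes the invariant chain (chromosome 18, 60803848 to 60812652, plus strand), the only one of the class II genes outside the MHC. It had 5.80 TPM (5.39 to 6.13) in replicate 1 and 4.90 TPM (4.53 to 5.21) in replicate 2. Relative to H2-Ab1 it was lower in replicate 1 and higher in replicate 2, with a log2 ratio of 0.16 ± 0.53 (SD, n = 2), so the order of these genes was not settled. No pair of neighbours among Cd74, H2-Ab1, H2-Eb1, Tap1, H2-Aa and Tap2 in the order of mean TPM had separate values.

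Of 12 other class II pathway genes, 3 reached 1 TPM in each library, against 23.9% of nuclear protein-coding genes. These 3 were the lysosomal enzymes Ctss at 13.9 and 9.45 TPM, Ifi30 at 6.91 and 4.98, and Lgmn at 1.75 and 1.39, which process antigen or the invariant chain. The only Ifi30 transcript in the tables is typed in M21 as a processed transcript, so its level over protein-coding transcripts is listed at 0. H2-DMa, a chain of the DM molecule that exchanges peptides on class II, had 2.83 and 0.78, or 0.49 and 0.42 over protein-coding transcripts. H2-Eb2 and Cd80, a costimulatory ligand, had 0 counts in both libraries.

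The transcriptional regulators were read at unequal levels. Of 13 regulators 8 reached 1 TPM in each library, led by the NF-Y subunits Nfyb (10.9 and 9.42 TPM), Nfya (9.27 and 8.62) and Nfyc (6.74 and 8.00). Over protein-coding transcripts these had 8.16 and 5.42, 4.77 and 3.64, and 6.31 and 3.43 TPM. Nlrc5, the coactivator of class I genes, had 0.56 and 0.20 TPM, and Ciita, the coactivator of class II genes, had 0.04 and 0.02. Nlrc5 exceeded Ciita by a log2 ratio of 3.56 ± 0.34 (SD, n = 2), and both lay under 1 TPM in each library. Ciita rested on 34 counts in replicate 1 and 17 in replicate 2. By counts with no correction for length the log2 ratio was 3.16 ± 0.50. Of 12 interferon receptor and response genes 7 reached 1 TPM in each library, led by Irf9 (14.1 and 6.71 TPM), Ifnar2 (9.55 and 11.0), Isg15 (9.51 and 8.44) and Irf7 (9.53 and 6.21). Over protein-coding transcripts Irf7 had 1.68 and 0.65 TPM. Across the 61 other genes of these 5 lists 28 reached 1 TPM in each library, against 23.9% of nuclear protein-coding genes. By single library, 37 did so in replicate 1 and 29 in replicate 2.

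**Figure D3:**
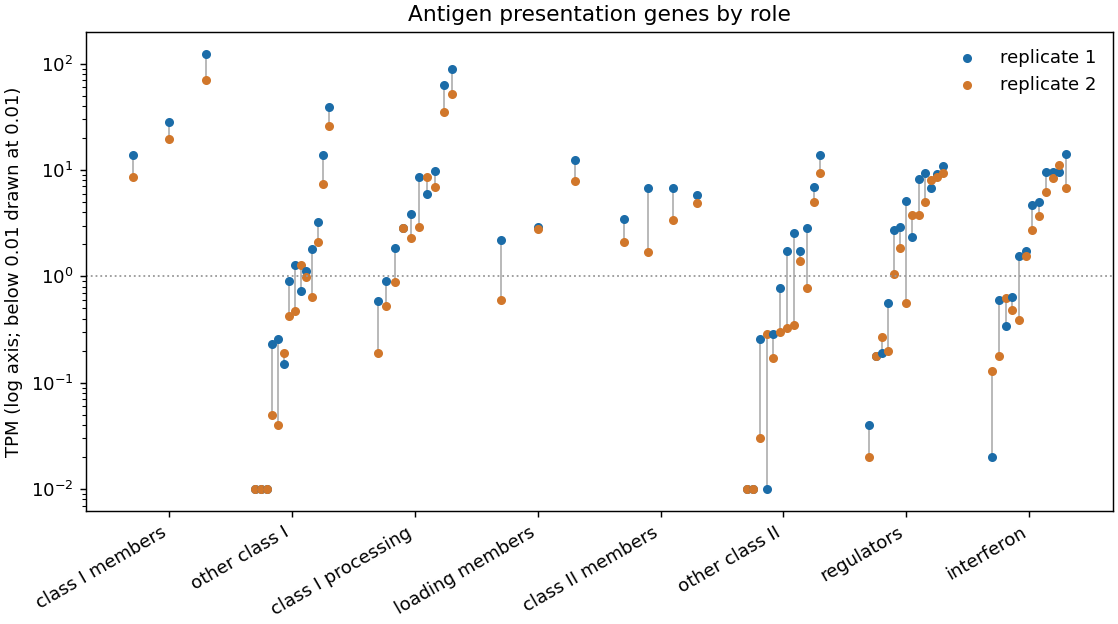
TPM (log axis) of the 10 genes and of the 61 other antigen presentation genes by role, each drawn as a replicate 1 point (blue) and a replicate 2 point (orange) joined by a line. Values below 0.01, zeros included, are drawn at 0.01, and the dotted line marks 1 TPM. B2m reaches highest, and other class I and class II genes spread from 0 to 39.2 TPM.

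The promoters of class I and class II genes share a module of X and Y boxes, which RFX, CREB and NF-Y bind and to which Nlrc5 or Ciita is recruited, and class I promoters also carry a kappa B site and an interferon element. Promoter sequences from RefSeq (GRCm38.p6) were matched for 7 of the 10 genes. The 200 bases before the start were searched on both strands for ATTGG (the Y box), TGACG (the core of the second X element), TTTCNNTTC (an interferon element) and GGGATTCCC (a kappa B site). Among 32851 promoters of the same length these letters occurred in 29.3%, 15.7%, 5.00% and 0.213%. H2-K1 held all 4, at 110, 90, 41 and 16 bases before the start for the kappa B, interferon, X and Y letters, and H2-D1 also held all 4. B2m and H2-Aa held the X and Y letters, H2-Eb1 the Y letters on each strand, Tapbp the Y letters and Tap1 the X letters. In H2-Aa the X letters occurred on both strands and overlapped. The promoters of B2m and H2-K1 and of both class II genes searched, H2-Aa and H2-Eb1, are printed with the matches in capitals, so that the layout can be compared. H2-D1 is left out, since an annotated transcript starts upstream of its RefSeq start. The same limit holds for Tapbp, whose annotated gene begins at 33915899 while the bases searched were 33919278 to 33919477.
B2m promoter, chr2:122147487-122147686 (plus strand): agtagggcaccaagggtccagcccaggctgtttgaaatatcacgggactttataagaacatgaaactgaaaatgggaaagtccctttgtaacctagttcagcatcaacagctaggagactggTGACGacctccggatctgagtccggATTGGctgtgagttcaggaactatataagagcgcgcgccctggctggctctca
H2-K1 promoter, chr17:34000348-34000547 (minus strand): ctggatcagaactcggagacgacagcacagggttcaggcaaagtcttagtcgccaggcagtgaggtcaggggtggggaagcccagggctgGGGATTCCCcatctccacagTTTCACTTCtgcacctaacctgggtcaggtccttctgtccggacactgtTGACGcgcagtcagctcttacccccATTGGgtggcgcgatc
H2-Aa promoter, chr17:34287824-34288023 (minus strand): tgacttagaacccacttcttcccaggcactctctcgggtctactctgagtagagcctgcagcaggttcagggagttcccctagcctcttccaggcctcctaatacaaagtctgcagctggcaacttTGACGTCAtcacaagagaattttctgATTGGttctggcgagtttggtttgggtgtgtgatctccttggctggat
H2-Eb1 promoter, chr17:34305667-34305866 (plus strand): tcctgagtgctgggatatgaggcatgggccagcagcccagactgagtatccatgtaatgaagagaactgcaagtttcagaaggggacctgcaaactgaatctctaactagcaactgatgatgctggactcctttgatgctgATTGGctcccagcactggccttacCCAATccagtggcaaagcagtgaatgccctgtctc
A match is a description of letters and says nothing of binding in these cells. Genes with the X and Y letters spanned 123 TPM (B2m) to 3.47 TPM (H2-Aa) in replicate 1.

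Class I exceeded class II in both libraries. B2m, H2-K1 and H2-D1 summed to 165.5 TPM in replicate 1 and 98.7 in replicate 2, while the 4 class II genes summed to 22.7 and 12.1. Class I was thus 7.28-fold and 8.18-fold higher, a log2 ratio of class II to class I of -2.95 ± 0.12 (SD, n = 2). B2m carried most of the class I sum. Against H2-K1 and H2-D1 alone the log2 ratio was -1.06 ± 0.23, or 1.86-fold and 2.33-fold. Without Cd74 and B2m the 3 class II chains lay 2.49-fold and 3.92-fold below the 2 heavy chains. In each comparison the direction was the same in both libraries.

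Class II genes are markers of other marrow cells, so lists for those cells are given beside them. The class II sum of 22.7 and 12.1 TPM stood next to B cell markers with 40.2 and 20.7 TPM in sum, of which 4 of 9 reached 1 TPM in each library, led by Ighm (26.4 and 14.2), Cd79b (6.14 and 2.30), Cd79a (1.96 and 1.00) and Ms4a1 (1.77 and 1.01). Ighm carried most of the B cell sum in both libraries. Macrophage markers summed to 40.6 and 28.0 TPM, with 7 of 10 at that level, led by Vcam1 (10.1 and 7.09), C1qb (6.16 and 3.89), Cd68 (6.38 and 3.07) and C1qa (4.76 and 4.60). Dendritic markers summed to 1.65 and 1.67 TPM with 1 of 8 at that level, and Xcr1 and Batf3 had 0 counts in both libraries. T and NK cell markers summed to 6.30 and 3.60 TPM, with 2 of 7. On the rescaled values the log2 ratio of replicate 1 to replicate 2 was 0.18 for the class II sum, 0.22 for B cell markers, -0.19 for macrophage markers, -0.75 for dendritic markers, 0.08 for T and NK cell markers, 0.25 for myeloid markers, 0.42 for erythroid markers and 0.01 for the class I sum. The part of these cells in the levels of class I and class II was not tested.

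**Figure D4:**
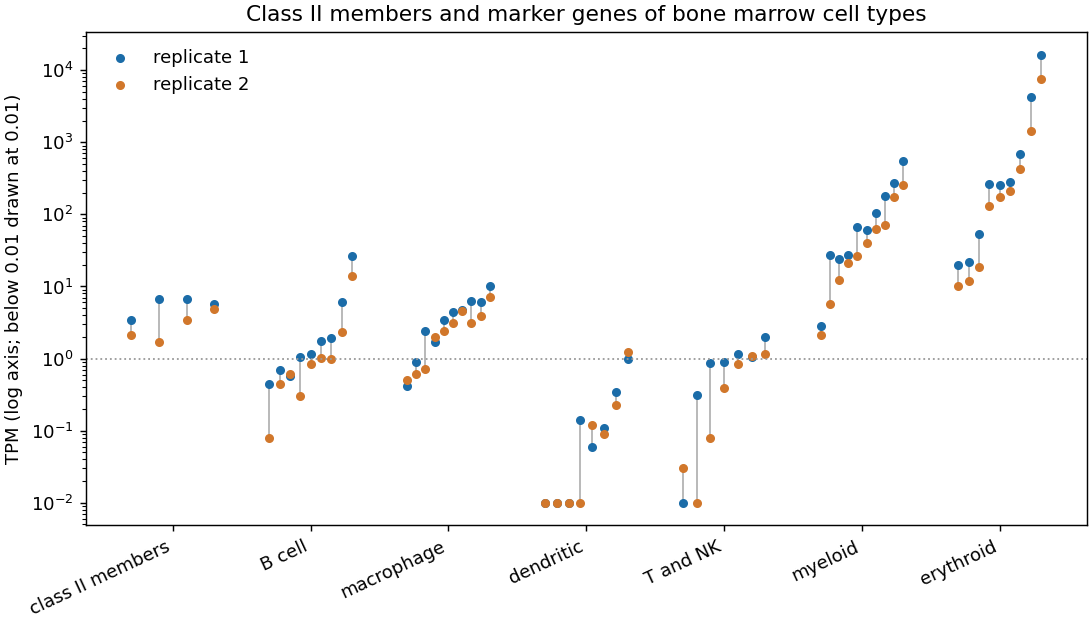
TPM (log axis) of the class II members and of marker genes for 6 cell types, each drawn as a replicate 1 point (blue) and a replicate 2 point (orange) joined by a line. Values below 0.01 are drawn at 0.01, and the dotted line marks 1 TPM. Class II points lie within the range of the B cell and macrophage markers and below most erythroid and myeloid markers.

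Between the libraries, 2 of the 10 genes differed by more than 2-fold after TMM scaling of the counts. H2-Eb1 was higher in replicate 1 by a log2 ratio of 1.34 and Tap2 by 1.21. In that direction 9.85% of the 9480 nuclear protein-coding genes of mean count 50 or more passed 2-fold, and 5.02% of the 1453 of mean count 500 to 1000, the range in which both genes lie. That window was chosen after their values were seen. None of the 10 was 2-fold higher in replicate 2, where 8.88% of genes were. The other 8 lay between -0.43 (Cd74) and 0.52 (Tap1), with H2-D1 at -0.00, B2m and Tapbp at 0.13, H2-Ab1 at 0.14, H2-K1 at -0.23 and H2-Aa at -0.32. The median of the 10 was 0.13, against 0.03 for all those genes, whose quartiles were -0.35 and 0.42. Among the 49 wider pathway genes counted to that depth, 5 were 2-fold higher in replicate 1 and 3 in replicate 2. The deposited TPM was higher in replicate 1 for all 10, with a median log2 ratio of 0.71, near the 0.66 of nuclear protein-coding genes as a whole. On that scale 2883 nuclear protein-coding genes were 2-fold higher in replicate 1 and 449 in replicate 2, against 934 and 842 after TMM scaling. There was 1 library on each side, so no replicate checks these differences.

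**Figure D5:**
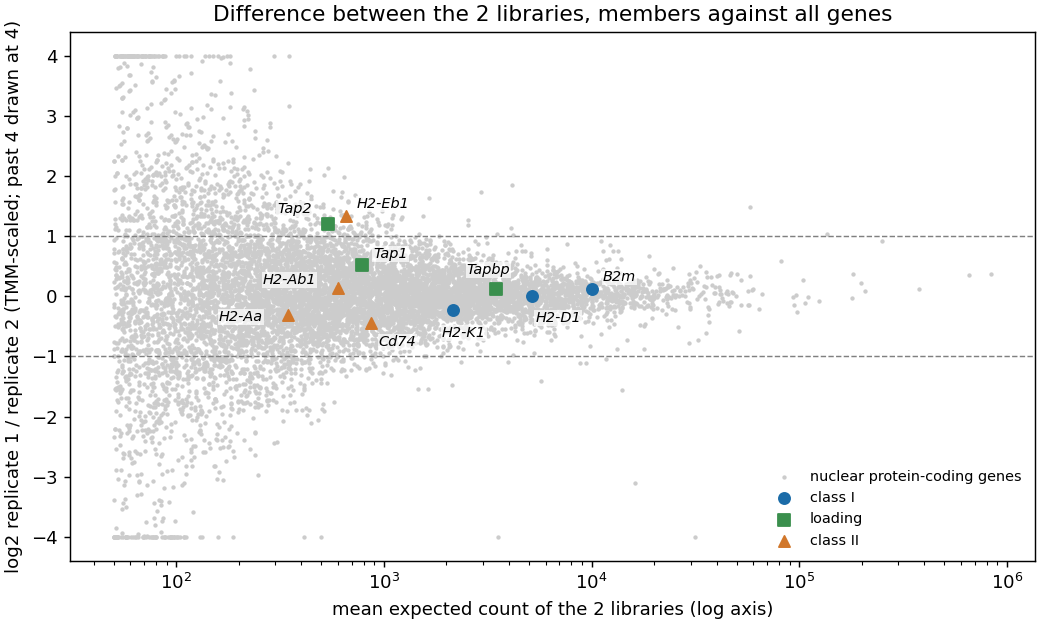
Log2 ratio of replicate 1 to replicate 2 from TMM-scaled counts against the mean count (log axis) for 9480 nuclear protein-coding genes (grey) and the 10 genes by role (colours). Dashed lines mark 2-fold, and the 144 genes past 4 are drawn at 4. H2-Eb1 and Tap2 lie above the upper line at mean counts of 656.5 and 537, and the other 8 lie between the lines.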

How the data were processed

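Total RNA-seq libraries from 2 CFU-E replicates were analysed from gene and transcript tables on mm10 with GENCODE M4, per the deposited notes. The authors deposited expected counts, TPM and, for transcripts, the percent of the gene's TPM, together with a posterior SD and credibility bounds on the scale of the signal, whose level no header states. Column names are those RSEM writes; aligner and quantifier: not given in the sources used here, versions included. The libraries held 62576352 and 36889511 counts after rounding.

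Names, transcript types and coordinates came from GENCODE M21, which matched 42462 of 43346 Ensembl rows; the types are those of M21. Counts were rounded, scaled by TMM (edgeR 4.0.16, R 4.3.3) and given a prior count of 0.5 before log2 ratios; DESeq2 1.42.0 size factors were an alternative. Levels are the deposited TPM, and class and pair ratios were formed within a library. Both replicates form 1 group, so values are given as mean ± SD (n = 2) with no test. Of the calculations, only the log2 ratio of replicate 1 to replicate 2 was tried on simulated counts with known fold changes. Identity and shared stretches came from GENCODE M21 transcripts. Each member was named, and of each other list the 4 highest genes, those with 0 counts in both libraries and the preset pairs; 1 gene that this rule names is not reported here. The members and lists were chosen with earlier results of these data known. Alternatives covered units, thresholds, filters, scaling, class membership and single libraries.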

Additional observations from a re-analysis of the deposited data

How the results depend on the processing

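The class II to class I log2 ratio of -2.95 stayed below 0 under every alternative run: -2.82 by CPM with no length correction, -3.54 without Cd74, -1.06 without B2m, -2.59 as the mean of log2(TPM + 1) per gene, and -3.38 with H2-T24, H2-T23 and H2-Q4 added to class I, an alternative chosen after seeing the data. Dropping Cd74 or adding genes to class I could only lower this ratio, so the sign under those settings was fixed in advance. With 1 library left out the ratio ranged from -3.03 to -2.86. At 5 TPM 4 of the 10 genes passed in both libraries, in place of 9 at 1 TPM. The share of nuclear protein-coding genes at 5 TPM was not computed. It was 23.9% at 1 TPM and 4.79% at 10 TPM. The number of nuclear protein-coding genes 2-fold higher in replicate 1 was 2883 on deposited TPM, 1541 with no count filter and 619 at a mean count of 100 or more, in place of 934; in replicate 2 it was 449, 2660 and 506, in place of 842. Cd74 to H2-Ab1 ranged from -0.21 without replicate 2 to 0.54 without replicate 1. B2m to H2-K1 moved from 3.10 to 2.19 by CPM. H2-Ab1 to H2-Eb1 turned to -0.0021 without replicate 2 and to -0.10 over protein-coding transcripts only, a setting chosen after seeing the data. The cause of these moves was not tested beyond the members, genes or libraries that each setting drops. No paired analysis was possible because there is 1 group. Only 2 libraries limit every SD. Retained-intron shares rest on estimated transcript counts.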
